A study of Mus musculus with 8 samples.

Results

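Targets of the transcription factor p53 that act in DNA repair and in metabolism were followed in mouse CD8+ T cells stimulated by either of 2 kinds of antigen-presenting cell. They were the rows named DDB2, XPC, POLK, ERCC5, RRM2B, GADD45A, FDXR, DCXR, EPHX1 and RPS27L, 10 of the 18138 gene names on the array. The genes were chosen by name after their differences between the groups on these same arrays were known, with the targets that ran against the rest included. Their differences are therefore given as a description, with no test. Of the 10 genes, 9 passed the filter on dim rows and Rrm2b did not.

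The cells were OT-1 T cells, which carry a receptor for the ovalbumin peptide SIINFEKL bound to H2-Kb. In one group (cB) they had been with CD40-activated B cells for 24 h, and in the other (DC) with dendritic cells for the same time. Both kinds of stimulator had been matured with LPS and loaded with the peptide, and T cells positive for CD8 and CD69 were sorted before RNA extraction. Each group had 4 arrays, no unstimulated T cells were analysed here, and the labels do not say whether the replicates came from separate animals or cultures, so the errors cover only the spread between these arrays.

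p53 is kept low by the ubiquitin ligase Mdm2 and accumulates when DNA is damaged or cells are otherwise stressed. It then binds response elements made of paired half-sites and raises the transcription of genes for cell cycle arrest, apoptosis, DNA repair and metabolism. The repair arm holds damage sensors and nucleases of nucleotide excision repair, a polymerase that copies past lesions, and a subunit of ribonucleotide reductase that supplies deoxynucleotides outside S phase.

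Half-sites of that kind were looked for in the annotated promoters, because most of the genes differed in the same direction between the groups. RefSeq promoter windows of build GRCm38.p6 run from 250 bases before to 50 bases after an annotated start, which need not be the gene's first base. They were matched by symbol for 7 of the 10 genes, in 9 windows. The p53 half-site consensus has 3 purines, then C, then 2 bases that are A or T, then G and 3 pyrimidines, and it reads the same on both strands. A perfect half-site lay in 3 of the 9 windows, for Rps27l, Gadd45a and Polk, and in 8.36% of all 32851 promoter windows. The 3 windows are shown 5′ to 3′ on the gene's strand because they carry these matches, which are in capitals. No match was found in the windows of Ercc5, Fdxr, Dcxr and Ephx1, which says only that these letters are not in those windows. The other Polk window, 96542530 to 96542829, is at the 5′ end of the gene and held no match. The matched Polk window lies inside the gene. Both Rps27l windows and the Ercc5 window also lie inside the annotated gene. Rps27l begins at 66944624, and its earlier window, 66945836 to 66946135, held no match. A pair of half-sites was allowed at most 13 bases between them and at most 2 mismatches in all. Such a pair was found in the 3 windows with a perfect half-site and in 3308 of all 32851 windows. In Rps27l the pair had 1 mismatch and no spacer, and it began at position -117 from the start of the later window's transcript. A match is a description of the sequence and not evidence of binding.

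Rps27l, chr9:66946163-66946462, plus strand, the later of 2 annotated starts, with half-sites at -210 to -201 and -107 to -98 from it: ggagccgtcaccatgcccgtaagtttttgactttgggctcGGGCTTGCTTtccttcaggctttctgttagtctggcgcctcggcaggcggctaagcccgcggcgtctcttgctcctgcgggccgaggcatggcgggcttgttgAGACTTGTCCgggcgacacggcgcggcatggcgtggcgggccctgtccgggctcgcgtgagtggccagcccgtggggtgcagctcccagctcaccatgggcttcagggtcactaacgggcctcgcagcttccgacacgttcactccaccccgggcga
Gadd45a, chr6:67037358-67037657, minus strand, with the half-site at -40 to -31 from the start: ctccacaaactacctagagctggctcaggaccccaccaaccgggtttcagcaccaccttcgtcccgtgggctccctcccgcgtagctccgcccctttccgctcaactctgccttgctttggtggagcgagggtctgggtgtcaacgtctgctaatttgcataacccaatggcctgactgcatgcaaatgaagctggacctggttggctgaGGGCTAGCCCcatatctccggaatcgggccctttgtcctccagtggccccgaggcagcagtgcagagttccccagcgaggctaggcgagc
Polk, chr13:96519138-96519437, minus strand, 1 of 2 annotated starts, with the half-site at -231 to -222 from it: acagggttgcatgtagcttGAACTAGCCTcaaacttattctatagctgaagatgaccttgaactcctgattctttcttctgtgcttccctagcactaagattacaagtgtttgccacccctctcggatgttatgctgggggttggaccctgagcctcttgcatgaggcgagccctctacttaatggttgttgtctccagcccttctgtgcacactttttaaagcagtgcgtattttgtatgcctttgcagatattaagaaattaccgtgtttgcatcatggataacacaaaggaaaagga

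Levels are log2 values of background-corrected, quantile-normalized intensity, and differences are cB minus DC, so a negative difference is a higher level on the DC arrays. Mean intensity per array lay between 602 and 824 and the share of rows detected between 38.3% and 40.8%. Over all 7167 genes tested, 61.4% passed a Benjamini-Hochberg adjusted p of 0.05 in limma, 31.6% higher in DC and 29.8% higher in cB, and the median difference was -0.03. The arrays of the 2 groups did not overlap in 29.1% of genes toward DC and in 27.7% toward cB. Among the 9 tested members 8 passed the adjusted p, 6 higher in DC and 2 in cB, and those 8 were also the ones whose groups did not overlap. Because the genes were chosen on this contrast, nothing is read from these counts. Ercc5, Polk, Gadd45a, Dcxr, Ephx1 and Rps27l were higher in DC, Ddb2 and Fdxr were higher in cB, and Xpc overlapped.

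Stimulator RNA and T cell identity were checked with marker rows. Of 13 T cell rows 12 were detected; Cd8a was undetected on all 8 arrays, while Cd8b1 was detected on all of them with a difference of -0.06 ± 0.11 (SE, n = 4 per group). Cd69, the sort marker, was higher in DC (-2.15 ± 0.13). Of 14 B cell rows, 4 were undetected on all cB arrays and 12 on all DC arrays, and their summed normalized level was 1676 to 2120 in cB and 1968 to 2177 in DC; among those tested, Fcmr and Cd79b (at least 4.84-fold) were higher in cB, Cd83 was higher in DC (-0.57 ± 0.13, adjusted p = 0.0031) and Spib did not pass, and Pax5 was undetected on every array. Of 20 dendritic and myeloid rows, 15 were undetected on all cB arrays and 10 on all DC arrays, with summed levels of 3506 to 3792 in cB and 3922 to 5013 in DC; of the 6 tested, Cd14 (at least 5.03-fold), Il1b, Fcer1g, Ctss and Cst3 were higher in DC, Fscn1, known from mature dendritic cells, was higher in cB (1.48 ± 0.21, adjusted p = 1.7e-04), and Itgax and Csf1r were undetected on every array. Each sum mainly follows its brightest row and says little about the dimmer ones. Among the B cell rows that was Cd83, with a mean log2 level of 10.12 in cB and 10.69 in DC. Among the dendritic and myeloid rows it was Cst3, at 11.50 in cB and 11.75 in DC. The part of stimulator RNA in the differences below was not tested. In bulk samples fewer cells of a type and less RNA per cell cannot be told apart.

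**Figure D1:**
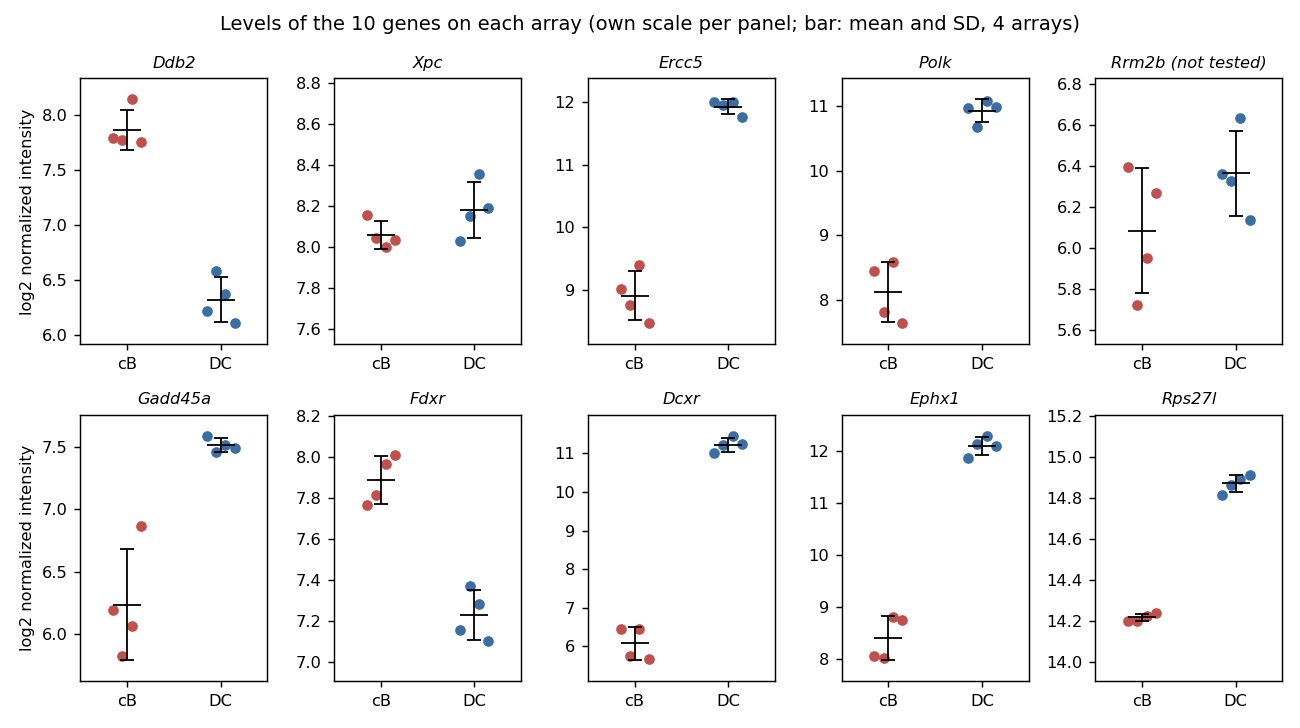
Log2 normalized intensity of each of the 10 genes on the 4 cB arrays (red) and 4 DC arrays (blue), with the mean and SD as a bar and a vertical scale of its own in each panel. The DC points lie above the cB points for Ercc5, Polk, Gadd45a, Dcxr, Ephx1 and Rps27l, below them for Ddb2 and Fdxr, and among them for Xpc and Rrm2b.

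The 3 excision repair genes went 3 ways: Ercc5 was far higher in DC, Ddb2 was higher in cB, and Xpc did not separate the groups. Ercc5 (GRCm38.p6, chromosome 1, 44146948 to 44181260) encodes XPG, the nuclease that cuts the damaged strand on the 3′ side of the lesion. Its level was 9.0, 8.76, 9.39 and 8.46 on cB replicates 1 to 4 and 11.999, 11.95, 12.01 and 11.76 on DC replicates 1 to 4. The lowest DC array stood 2.37 above the highest cB array, and the cB arrays were the more scattered, with an SD of 0.39 against 0.12. The difference was -3.02 ± 0.18 (SE, n = 4 per group), an 8.13-fold higher level in DC, ranked 179 by size among the 7167 genes.

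Ddb2 (chromosome 2, 91211545 to 91237132) encodes the subunit of the UV-damage binding complex that recognizes photoproducts in chromatin. It is a p53 target in human cells, whereas mouse Ddb2 is known for not being induced by p53. Its level was 7.79, 7.77, 8.14 and 7.75 on the cB arrays and 6.21, 6.58, 6.37 and 6.10 on the DC arrays. Every cB array was above every DC array, with cB replicate 3 highest, and the difference was 1.55 ± 0.14, or 2.92-fold. On the DC arrays the unprocessed signal, 202 to 237, was close to the detection limit of 179 to 190, and the size depended on the background: it was 0.76 with no background correction and 0.35 with the background taken from all rows.

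Xpc (chromosome 6, 91489305 to 91515888) encodes the protein that starts global genome repair by sensing distorted DNA. It stood at 8.16, 8.04, 8.0 and 8.03 on the cB arrays and at 8.03, 8.15, 8.36 and 8.19 on the DC arrays. The groups overlapped, and the difference was -0.12 ± 0.10, beside SDs of 0.07 in cB and 0.14 in DC. It was -0.06 without DC replicate 3 and -0.06 with the background from all rows.

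The other tested excision repair genes spread to both sides without a common shift. Of 21 tested, 8 were higher in cB, 4 were higher in DC and 9 did not pass, with a median difference of 0.01 beside -0.03 over all genes. That median was -0.0079 without cB replicate 1 and 0.10 with median scaling. Those with the lowest p were the ligase gene Lig1 (4.07 ± 0.12, adjusted p = 7.4e-09) and the 3 subunits of the single-strand binding protein RPA, Rpa2 (3.37 ± 0.14, detected on 1 of 4 DC arrays), Rpa1 (1.74 ± 0.10) and Rpa3 (1.55 ± 0.12), which also serve DNA replication. Ddb1, the partner of Ddb2, was higher in cB by 0.65 ± 0.15 (adjusted p = 0.0041), and Rad23b, a partner of Xpc, was higher in DC (-0.27 ± 0.09, adjusted p = 0.019). Within this list the value closest to Ercc5 was that of Xpa, which encodes a damage-verifying protein, at -0.93 ± 0.11 (adjusted p = 4.5e-05).

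Polk was higher in DC, in contrast to most other tested translesion genes. Polk (chromosome 13, 96480687 to 96542579) encodes DNA polymerase kappa, which copies past bulky adducts and is known as a p53-dependent gene in mouse. Its level was 8.45, 7.81, 8.59 and 7.64 on the cB arrays and 10.97, 10.68, 11.08 and 10.98 on the DC arrays. The 2 groups stood 2.09 apart at their nearest arrays, and the difference was -2.81 ± 0.21, or 6.99-fold. It was -2.30 with no background correction.

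Of the 12 other translesion genes tested, 7 had the higher level in cB against 3 in DC, with a median difference of 0.54, which was 0.33 with no background correction and 0.22 with the background from all rows. Rev1, a scaffold that recruits the other translesion polymerases, was higher in DC (-1.88 ± 0.10, adjusted p = 3.1e-07), as were Ube2b (-0.72 ± 0.09) and Rev3l (-0.59 ± 0.19, adjusted p = 0.018). The polymerase genes Polh (0.76 ± 0.29, adjusted p = 0.045) and Poli (0.82 ± 0.13, adjusted p = 3.8e-04) were higher in cB. So were Pold3 (2.34 ± 0.13) and Pcna, the gene of the sliding clamp, which no DC array detected and which was at least 4.72-fold higher in cB.

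Rrm2b (chromosome 15, 37923952 to 37961119), also called p53R2, encodes the ribonucleotide reductase subunit that works in resting and damaged cells. Its level was 6.39, 5.72, 5.95 and 6.27 on the cB arrays and 6.36, 6.32, 6.63 and 6.13 on the DC arrays, and the groups overlapped. Its row was not tested because the detection p was below 0.05 on only 2 arrays, cB replicate 4 and DC replicate 3. The difference without the filter was -0.28 ± 0.16, beside SDs of 0.30 in cB and 0.21 in DC. It was -0.10 with no background correction and -0.03 with the background from all rows.

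The S-phase partners of Rrm2b were separated widely. Rrm2, the subunit used by dividing cells, was higher in cB by 3.20 ± 0.18 (adjusted p = 2.7e-07) and Rrm1, the large subunit that both small subunits share, by 3.66 ± 0.16 (adjusted p = 7.3e-08). Of 13 deoxynucleotide supply genes, all tested, 10 were higher in cB and 3 in DC, with a median difference of 2.14, which was 0.85 with the background from all rows and 1.19 with no background correction, and lay between 1.36 and 1.79 when any 1 cB array was left out. The thymidylate synthase gene Tyms differed by 4.31 ± 0.10, the thymidine kinase gene Tk1 was at least 25.0-fold higher in cB and the deoxycytidine kinase gene Dck at least 4.16-fold. The 3 higher in DC were Samhd1, which encodes an enzyme that degrades deoxynucleotides (-0.70 ± 0.14, detected on 1 of 4 cB and 3 of 4 DC arrays), and the genes for the mitochondrial kinases Tk2 (-0.76 ± 0.16) and Dguok (-0.73 ± 0.12).

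Gadd45a was higher in DC, with 1 cB array nearer to the DC level than the others. Gadd45a (chromosome 6, 67035096 to 67037407) encodes a small stress protein that binds PCNA and p21 and can activate MAP kinase signalling. The level was 6.19, 5.83, 6.07 and 6.86 on the cB arrays and 7.59, 7.46, 7.52 and 7.49 on the DC arrays. The cB arrays had an SD of 0.44 and the DC arrays one of 0.05, and cB replicate 4 was the array that came closest to the DC level, 0.60 below it. The difference was -1.28 ± 0.19, or 2.42-fold. It was -1.48 without cB replicate 4, -0.57 with no background correction and -0.23 with the background from all rows.

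The 3 Gadd45 genes did not move as a family. Gadd45b was higher in DC (-2.37 ± 0.21, adjusted p = 7.5e-06) and Gadd45g was higher in cB by 0.44 ± 0.11 (adjusted p = 0.0046). Of 4 tested genes among these paralogs and the kinases downstream, 2 were higher in each group, and the median difference of -0.16 was 0.13 with no detection filter. The kinase gene Map2k3 (-0.76 ± 0.09) was higher in DC and Mapk14, which encodes p38 alpha (0.58 ± 0.10), in cB.

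Fdxr was the second gene that ran against the rest. Fdxr (chromosome 11, 115268024 to 115277101) encodes ferredoxin reductase, a mitochondrial flavoprotein that passes electrons from NADPH to ferredoxins for steroid and iron-sulfur cluster synthesis. Its level was 7.77, 7.81, 7.96 and 8.01 on the cB arrays and 7.15, 7.37, 7.28 and 7.10 on the DC arrays. All cB arrays lay above all DC arrays, by 0.39 at the nearest pair, and the difference was 0.66 ± 0.10, or 1.58-fold. It was 0.38 with no background correction and 0.20 with the background from all rows. The ferredoxin genes Fdx1 and Fdx1l (Fdx2) were undetected on all 8 arrays. Of 8 iron-sulfur assembly genes tested, 4 lay on the cB side and 2 on the DC side, with a median difference of 0.22 (0.12 without cB replicate 4, 0.06 with no detection filter and 0.45 with a detection p under 0.01), among them the sulfur donor gene Nfs1 (0.64 ± 0.08) and Bola3 (0.62 ± 0.10) toward cB and the scaffold gene Iscu (-0.74 ± 0.09, adjusted p = 4.6e-05) toward DC.

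Dcxr had the widest separation of the 10 genes. Dcxr (chromosome 11, 120724546 to 120727284) encodes dicarbonyl and L-xylulose reductase, an NADPH-dependent enzyme of the uronate cycle. On the cB arrays it stood at 6.44, 5.74, 6.45 and 5.68 and on the DC arrays at 10.999, 11.20, 11.44 and 11.25. The unprocessed signal was 179 to 257 on the cB arrays, just above the detection limits of 173 to 195, and 1961 to 3271 on the DC arrays. The groups were 4.55 apart at their nearest arrays and the difference was -5.15 ± 0.20, or 35.4-fold, ranked 19 by size among all genes tested. It was -3.59 with no background correction and -3.56 with the background from all rows, and the groups did not overlap in either.

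None of the 10 other tested genes of the pentose, uronate and carbonyl-reducing pathways passed toward DC (0 in limma, and the lowest difference was -0.23, that of Pgls, with adjusted p = 0.11); 6 were higher in cB and the median difference was 0.59, beside 0.32 with no background correction, 0.30 with the background from all rows and 0.19 with no detection filter. Cryl1, which encodes the gulonate dehydrogenase that makes the precursor of L-xylulose, differed by 2.68 ± 0.18 (adjusted p = 1.2e-06, detected on 1 of 4 DC arrays). Rpia (1.01 ± 0.10), Pgd (0.82 ± 0.10) and Akr1b3 (0.71 ± 0.13), genes of the pentose phosphate and polyol pathways, were also higher in cB.

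Ephx1 was likewise many times higher in DC. Ephx1 (chromosome 1, 180989556 to 181017569) encodes microsomal epoxide hydrolase, which turns reactive epoxides into diols. The level was 8.05, 8.01, 8.80 and 8.74 on the cB arrays and 11.88, 12.14, 12.30 and 12.11 on the DC arrays. The nearest arrays were 3.08 apart, and the difference was -3.71 ± 0.20, or 13.06-fold. It was -3.23 with no background correction and -3.85 with the background from all rows. Ephx2, the gene of soluble epoxide hydrolase, was undetected on all 8 arrays. Of 6 tested xenobiotic enzyme genes, 4 lay on the cB side and 1 on the DC side, with a median difference of 1.17 (0.70 with no background correction, 0.53 with the background from all rows and 0.19 with no detection filter); the glutathione transferase genes Gstp1 (1.73 ± 0.12), Gstt1 (1.54 ± 0.21) and Gstt2 (1.40 ± 0.21) were on the cB side and Mgst2 (-1.01 ± 0.18) on the DC side.

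Rps27l showed a small difference with little scatter. Rps27l (chromosome 9, 66944624 to 66949522) encodes a p53-inducible paralog of ribosomal protein S27. Its level was 14.20, 14.20, 14.23 and 14.24 on the cB arrays and 14.81, 14.86, 14.89 and 14.91 on the DC arrays. The SD was 0.02 and 0.04, and the groups were 0.57 apart at their nearest arrays. The difference was -0.65 ± 0.08, or 1.57-fold, and it was -0.65 with no background correction and -0.66 with the background from all rows. The unprocessed signal reached 35249 where the brightest row of any array reached 50565, and cross-hybridization with Rps27 was not tested.

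Among 23 other tested proteins of the small ribosomal subunit, 6 were higher in DC, 1 was higher in cB and 16 did not pass, with a median difference of -0.15 (-0.22 with median scaling in place of quantile normalization). Rps27a, a ubiquitin fusion gene unrelated to Rps27 despite its name, was the 1 toward cB (0.98 ± 0.12, adjusted p = 5.2e-05, detected on 2 of 4 DC arrays). Rps3 (-0.42 ± 0.10, adjusted p = 0.0045) and Rps15 (-0.41 ± 0.10, adjusted p = 0.0052) were among those toward DC.

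**Figure D2:**
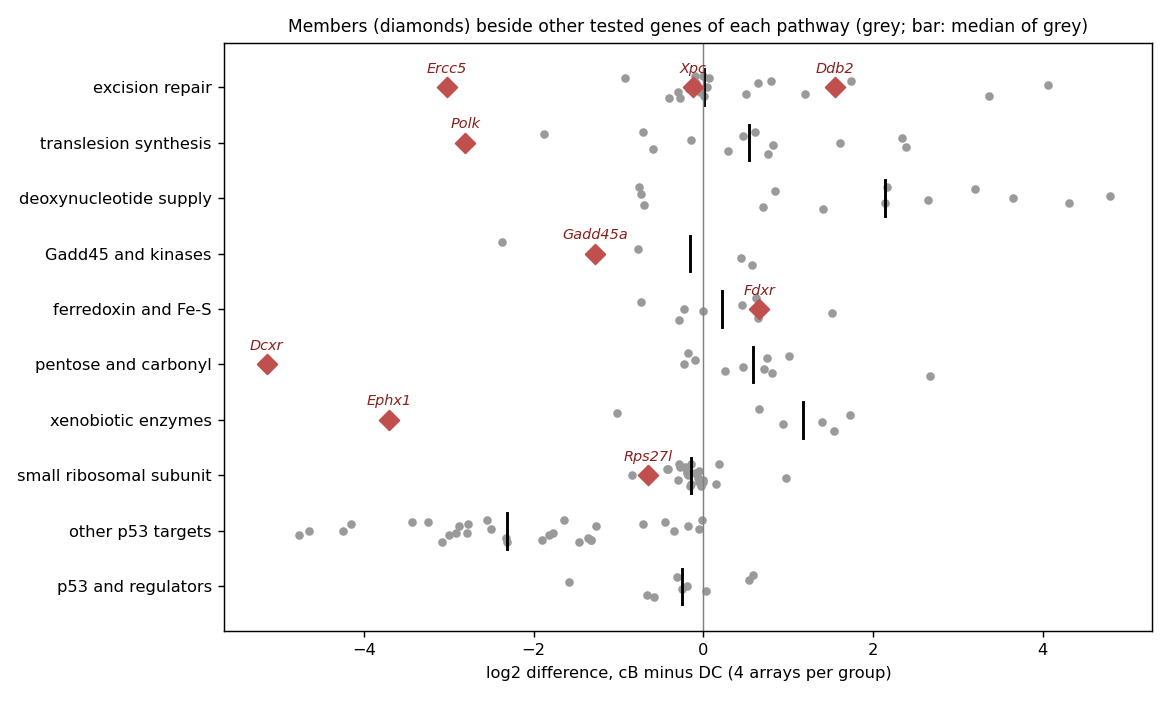
Log2 difference, cB minus DC, of the 9 tested members (red diamonds) beside the other tested genes of each pathway (grey points, black bar at their median). Ercc5, Polk, Dcxr and Ephx1 lie to the DC side of every grey point in their rows, Ddb2 lies on the cB side of the excision repair median, and the 31 other p53 targets all lie below 0.

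The other p53 targets that were tested were nearly all on the DC side. Their list was written with earlier results known. It had 39 rows on the array, of which 31 were tested. In limma 28 of the 31 were higher in DC, 0 were higher in cB and 3 did not pass. The median difference was -2.31, and -1.58 in the authors' gene-level values. Tigar, not tested, was higher in cB without overlap (0.43 ± 0.14 without the filter, detected on 3 cB and 0 DC arrays). The remaining untested rows lay to both sides, each detected on at most 1 array. Phlda3, a repressor of AKT (-4.16 ± 0.13, adjusted p = 9.0e-09), Apaf1, the core of the apoptosome (-2.88 ± 0.10, adjusted p = 2.1e-08), Dgka (-2.32 ± 0.09) and Ak1, at least 24.6-fold higher in DC, had the lowest p. Mdm2, the main inhibitor of p53, differed by -2.78 ± 0.11 (adjusted p = 3.6e-08) and Cdkn1a, which encodes p21, by -3.24 ± 0.15 (adjusted p = 8.5e-08). The highest value among the 31 was -0.02, that of Pml, so Ddb2 and Fdxr lay outside the range of these 31. Ercc5, Polk, Gadd45a, Ephx1, Rps27l and Xpc lay within that range, and Dcxr lay below its lowest value of -4.76.

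Trp53 itself, the p53 gene, was higher in DC (-0.66 ± 0.09, adjusted p = 1.9e-04). Of 9 tested genes for p53 and its regulators, 3 were higher in DC, 1 was higher in cB and 5 did not pass, with a median difference of -0.26, which was -0.44 without cB replicate 1 and -0.15 with the background from all rows. The coactivator gene Ep300 (-1.59 ± 0.30) and the kinase gene Hipk2 (-0.58 ± 0.14) were the others toward DC, and Rfwd2, which encodes the p53 ubiquitin ligase COP1 (0.54 ± 0.17), was the one toward cB.

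The members also varied within groups. Their median within-group SD was 0.29, beside 0.20 over all genes tested. On the cB arrays, Ercc5, Polk and Dcxr were each higher on replicates 1 and 3 than on replicates 2 and 4, Gadd45a was highest on replicate 4, and Ephx1 was higher on replicates 3 and 4. All 9 tested members lay below their cB mean on replicate 2 (0 of 9 above, median deviation -0.14), and 7 of 9 lay above it on replicate 3 (median 0.28). On the DC arrays all 9 lay above their mean on replicate 3, with a median deviation of 0.08. The median deviation over all tested genes was -0.0029, -0.0015 and 0.0020 on the same 3 arrays. These shifts were small beside the differences of Dcxr, Ephx1, Ercc5 and Polk, and leaving out any 1 array kept the 6 members without overlap toward DC and the 2 toward cB.

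**Figure D3:**
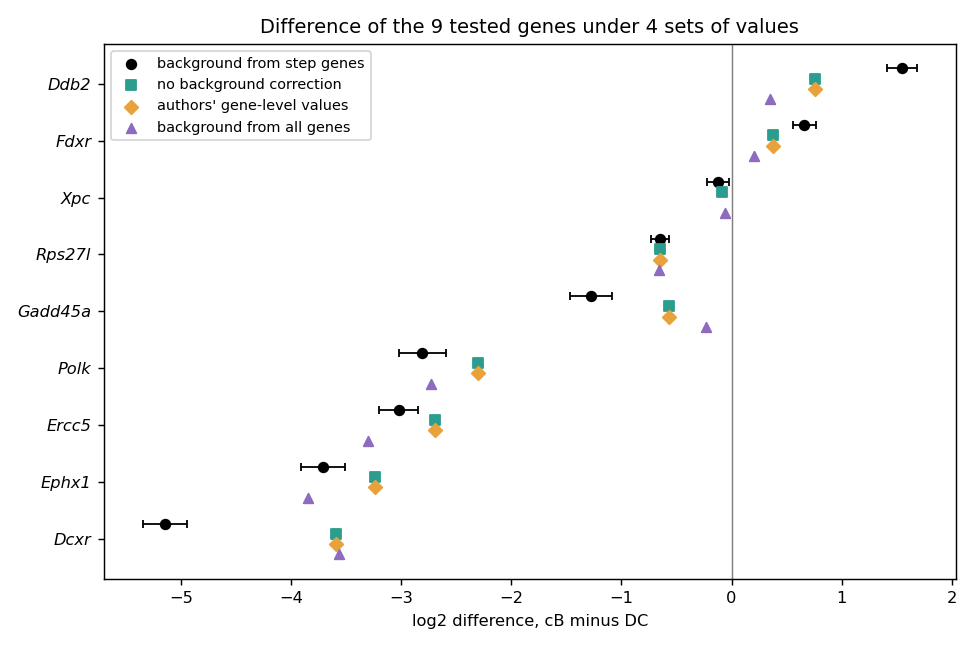
Log2 difference, cB minus DC, of the 9 tested genes with the background estimated as in the text (black, with SE), with no background correction (green), in the authors' gene-level values (orange; no Xpc value) and with the background from all rows (purple). The sides are the same in all 4; the sizes of Ddb2, Fdxr, Gadd45a and Dcxr move by the largest factors among the 8 that do not overlap.

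Signal and detection p did not go together for several dim rows. The detection p of 5 members (Ddb2, Rrm2b, Gadd45a, Fdxr and Dcxr) was not on the step that ranks against the negative controls give, as for 4209 rows in all. Rrm2b had a signal above the detection limit of step rows on all 8 arrays, 179 to 257 against limits of 173 to 195, yet its detection p was 0.61 on cB replicate 1 at a signal of 236, where step rows at least as bright had a detection p of at most 7.85e-07. On the same array Ddb2 had a detection p of 0.0074 at 379, Fdxr one of 0.023 at 376 and Gadd45a one of 0.0014 at 223. The files give 1 value per gene name, and whether these rows average several probes that disagree was not tested.

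**Figure D4:**
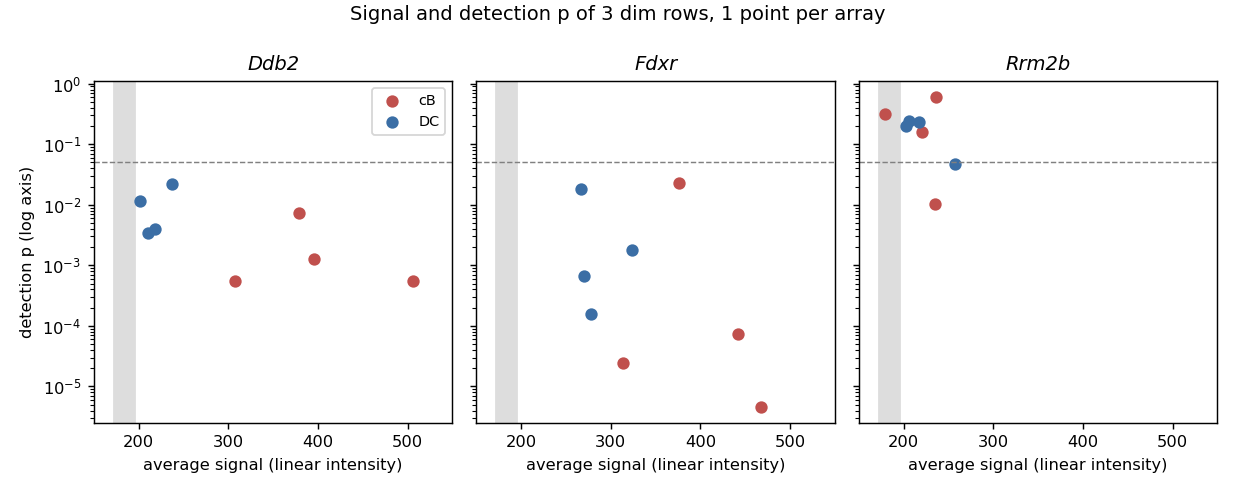
Detection p (log axis, dashed line at 0.05) against unprocessed average signal of Ddb2, Fdxr and Rrm2b, 1 point per array, cB red and DC blue, with the range of detection limits of step rows shaded. All Rrm2b points but 2 lie above the line although every signal is above its array's limit.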

How the data were processed

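Sorted OT-1 T cell RNA was, per the labels, run on the Illumina mouse-ref8-v2.0 beadchip. The deposited non-normalized table gives the average bead signal, a linear intensity, and a detection p-value per gene name and array, per the file headers. A second table deposited by the authors holds log2 normalized values by gene, with the method not given in the sources used here; their differences matched those of quantile normalization without background correction within 0.01 for 100% of 7258 shared genes, so they are no separate check. They hold 8 of the 10 members. The 2 probe-level tables carry no gene names and were not used.

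In R 4.3.3 with limma 3.58.1, the background was estimated per array from the 13929 rows whose detection p was a whole multiple of 1 in 798 (tolerance 0.001 of a step), followed by normexp with an offset of 16 and quantile normalization. The test took genes that at least 4 arrays detected at a p under 0.05, using lmFit and eBayes, cB minus DC, on the whole table, and Benjamini-Hochberg adjustment. The procedure was also run on simulated data. Every simulated row had a detection p on the step, so the choice of rows for the background was not tested there. "At least" folds compare the bright group's mean with a floor in the dim group, namely the lowest value detected on that array or the gene's value if larger.

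Groups come from the sample titles. The members, the gene lists and the background setting were chosen with earlier results of these data known. Named beside the members were, per list, up to 4 tested genes of lowest p, close partners of a member and Cd69, Cd8a and Cd8b1. Xpa, Rev3l, Samhd1, Tk2, Dguok, Pgls, Pml, Tigar, Fdx1l and the B cell and myeloid rows were added after their values were seen. Some genes that this rule names are not reported here. Names follow the array design, with list symbols matched through RefSeq synonyms. Alternatives were other backgrounds, scalings and filters, a replicate block and leaving out each array.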

Additional observations from a re-analysis of the deposited data

Results flagged for a closer look

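Of 20 sets of 4 arrays checked (10 genes in 2 groups), 1 held an array far from the others, where chance flags about 1 in 20. On cB replicate 3 the Ddb2 level was 8.14 and the nearest cB array was at 7.79, a gap of 0.901 of the group's range, above Dixon's critical value for 4 samples. The Ddb2 difference without that array was 1.45.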

How the results depend on the processing

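The count of members without overlap, 6 toward DC and 2 toward cB, was the same under all 17 alternatives. Of 152 member differences recomputed under these, 131 moved by less than the spread between replicates, 21 moved by more and 0 changed side. The settings that changed only the filter or added the replicate block used the same normalized values, so no member's difference or overlap could move. The authors' values repeat the setting with no background correction. These counts therefore overstate how many separate checks were made. The median difference of the members in the fit, -1.28, was -0.66 when all genes gave the background, -0.65 without background correction and -0.98 with a normexp offset of 50; it was -0.97 with no detection filter and -0.97 with a filter on signal in place of the detection p, which was added after the data were seen, as Rrm2b then enters. The Gadd45 family list's median, -0.16, turned to 0.13 with no detection filter, where undetected members enter. Over all genes the count of calls, 4397, lay between 3775 and 4743, and that in the pathway lists, 95, between 87 and 104. With the replicate number as a block the counts were 4431 and 94. Same-numbered arrays correlated in their deviations from the group means at 0.11, 0.13, 0.18 and 0.08, and each cB array correlated best with the DC array of its own number, a hint from the data only. Low signal over background limits Ddb2, Fdxr, Gadd45a and Rrm2b in both groups and Dcxr in cB; Rps27l sits near the bright end.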
